A study of Mus musculus with 2 samples.

Results

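The expression of 10 genes of the NF-kB pathway was followed across the immune cells and fibroblasts of transplanted mouse hearts. These were the IkB family genes Nfkbia, Nfkbid and Nfkbiz, the feedback regulators Tnfaip3 and Gadd45b, the subunits Rel, Relb, Nfkb1 and Nfkb2, and the cytokine Tnf. They are 10 of the 22337 gene symbols measured. They were chosen by name, with earlier results of these data on cell types and graft groups known, so their levels and their differences between grafts are a description and were not tested as a group. Single-cell RNA sequencing was performed on cells from 6 heart allografts harvested 14 days after transplantation (POD14). All donor hearts came from Bm12 mice, which carry a mutated MHC class II gene, and all recipients were B6 mice with an intact Il33 gene, so a deletion was present only in graft cells. Hearts 1, 2 and 3 came from Bm12 donors labelled WT (IL-33+ grafts), and hearts 4, 5 and 6 came from Bm12 donors labelled IL33 KO (IL-33- grafts). IL-33 is an alarmin of stromal cells that acts through the receptor ST2, and the design asks what its absence from the graft changes in the infiltrating cells. Animals were matched by age and sex, and the labels name no other treatment. Perfused hearts were digested with collagenase IV and immune cells were enriched on a density gradient, so fibroblasts are those that this enrichment left.

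NF-kB proteins are dimeric transcription factors that are held in the cytoplasm by IkB proteins until a kinase complex, switched on by receptors such as those for TNF, IL-1 family cytokines, antigens and microbial products, marks the IkB for destruction. The freed dimers enter the nucleus and induce, among many immune genes, regulators of the pathway itself. These are a new supply of IkB-alpha (Nfkbia), the nuclear IkB proteins IkBNS (Nfkbid) and IkB-zeta (Nfkbiz), and the ubiquitin-editing enzyme A20 (Tnfaip3). In lymphocytes c-Rel (Rel) and the p105 precursor of p50 (Nfkb1) are known for their part in T cell activation and Treg development, and in myeloid cells Tnf is a classic output of the pathway.

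The bases just upstream of the genes' RefSeq starts are shown because NF-kB dimers bind a 10-letter kB motif. The motif was searched on both strands in the 250 bases before each RefSeq start (assembly GRCm38), which can lie inside the gene. Of the genes, 7 had a promoter entry under their symbol, and 5 of these 7 held a match (71.4%), beside 2225 of all 27025 symbols (8.23%). Over single promoter entries the motif lay in 2382 of 32851 (7.25%). Stretches around the matches of 5 genes follow, 5′ to 3′ on the gene's strand, with the motif in capitals:
Nfkbia, chr12:55492648-55492706, minus strand: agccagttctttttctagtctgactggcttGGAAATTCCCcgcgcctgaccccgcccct
Nfkbid, chr7:30422156-30422264, plus strand: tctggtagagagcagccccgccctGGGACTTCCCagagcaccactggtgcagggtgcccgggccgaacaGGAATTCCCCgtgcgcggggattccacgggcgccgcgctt
Tnfaip3, chr10:19015516-19015545, minus strand: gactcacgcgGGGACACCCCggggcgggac
Tnfaip3, chr10:19015411-19015452, minus strand: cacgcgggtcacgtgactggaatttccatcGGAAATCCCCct
Rel, chr11:23771021-23771091, minus strand: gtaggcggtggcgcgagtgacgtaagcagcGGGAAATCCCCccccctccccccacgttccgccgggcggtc
Nfkb2, chr19:46304688-46304717, plus strand: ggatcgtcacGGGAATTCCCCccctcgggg
In Rel and in Nfkb2 the 11 capital letters are 2 matches that overlap by all but 1 base. The match of Nfkbia began 29 bases before the start, those of Nfkbid 226 and 181 bases before 1 of its 3 annotated starts, and those of Tnfaip3 125 and 12 bases before 1 of its 2 starts. Rel had its overlapping pair 92 and 91 bases upstream and Nfkb2 its pair 39 and 38 bases upstream, with a further Nfkb2 match 11 bases before the same start. The other 2 starts of Nfkb2 had matches 236 and 225 bases upstream, and the Nfkb2 stretch shown overlaps an annotated exon. The stretches shown for Nfkbid, Tnfaip3 and Nfkb2 lie inside the GENCODE spans of these genes, given below. The outermost of the Nfkbid starts had no match. No match was found in the entries of Gadd45b and Tnf. Nfkbiz, Relb and Nfkb1 had no entry. A match describes letters in a window and not binding.

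In the GENCODE annotation of GRCm38, the IkB family genes lie at chr12:55489410-55492647 (Nfkbia, minus strand), chr7:30421732-30428746 (Nfkbid, plus) and chr16:55811375-55838899 (Nfkbiz, minus). Tnfaip3 is at chr10:19000910-19015657 (minus) and Gadd45b at chr10:80930073-80932204 (plus). The subunit genes are at chr11:23736847-23770970 (Rel, minus), chr7:19606217-19629438 (Relb, minus), chr3:135584655-135691547 (Nfkb1, minus) and chr19:46304320-46312385 (Nfkb2, plus), and Tnf is at chr17:35199381-35202007 (minus).

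The data hold 4441 cells of 14 annotated types, all from 1 gene expression library in which a hashtag marked each heart. Hearts 1, 2 and 3 gave 866, 230 and 1666 cells and hearts 4, 5 and 6 gave 836, 284 and 559, with 1500 to 14977 unique molecular identifiers (UMIs, 1 per captured transcript) per cell. Levels are given as CPM, the UMIs of a gene scaled to the same total of UMIs in every cell, and each heart enters a cell type with the mean of its cells, so that the heart is the replicate. Il33 did not check the graft labels: in fibroblasts its transcript was at 24.3, 0 and 50.7 CPM in hearts 1, 2 and 3 and at 32.6, 73.8 and 16.1 CPM in hearts 4, 5 and 6 (9, 3 and 5 UMIs). Whether the deletion removes the 3′ end that the library reads is not given in the sources used here, and graft and recipient fibroblasts were not told apart. Among the 83 annotated unconventional T cells, 51 (61.45%) held both T cell and macrophage markers, and their median of 10175 UMIs was the highest of any type. Among 204 monocyte-derived dendritic cells (Mo-DCs), 48 (23.53%) held at least 4 of 8 neutrophil markers, and this share reached 42.86% in heart 4. Those 8 markers summed to 1971 to 72180 CPM over the hearts in Mo-DCs and to 228 to 2936 CPM in macrophages. Markers of conventional dendritic cells summed to a mean of 63.5 CPM in Mo-DCs, beside 862 CPM in conventional dendritic cells. Macrophage markers summed to 4175 to 8426 CPM in macrophages and to 47.2 to 348 CPM in B cells. They also reached 1851 to 9825 CPM in Mo-DCs and 2030 to 4732 CPM in unconventional T cells, so both types overlapped with macrophages in these markers. All types are described as annotated.

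The genes fell into different orders over the cell types. Nfkbia, Nfkbiz, Gadd45b and Tnf had their highest mean in Mo-DCs, Tnfaip3 and Nfkb1 in regulatory T cells (Tregs), Nfkbid and Rel in B cells, Relb in conventional dendritic cells (cDCs) and Nfkb2 in NK cells. The part of neutrophil and macrophage transcripts in the values of annotated Mo-DCs was not tested. Tregs were among the 3 highest types for every gene except Rel and Tnf. Naive T cells (Tn) were the lowest type for Nfkbiz, Gadd45b, Rel, Nfkb1 and Nfkb2. Means are over hearts with at least 5 cells of the type (n = 6 hearts unless given), values of single hearts include those with fewer cells, and genes are not compared with each other because the 3′ libraries do not measure levels per length.

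**Figure D1:**
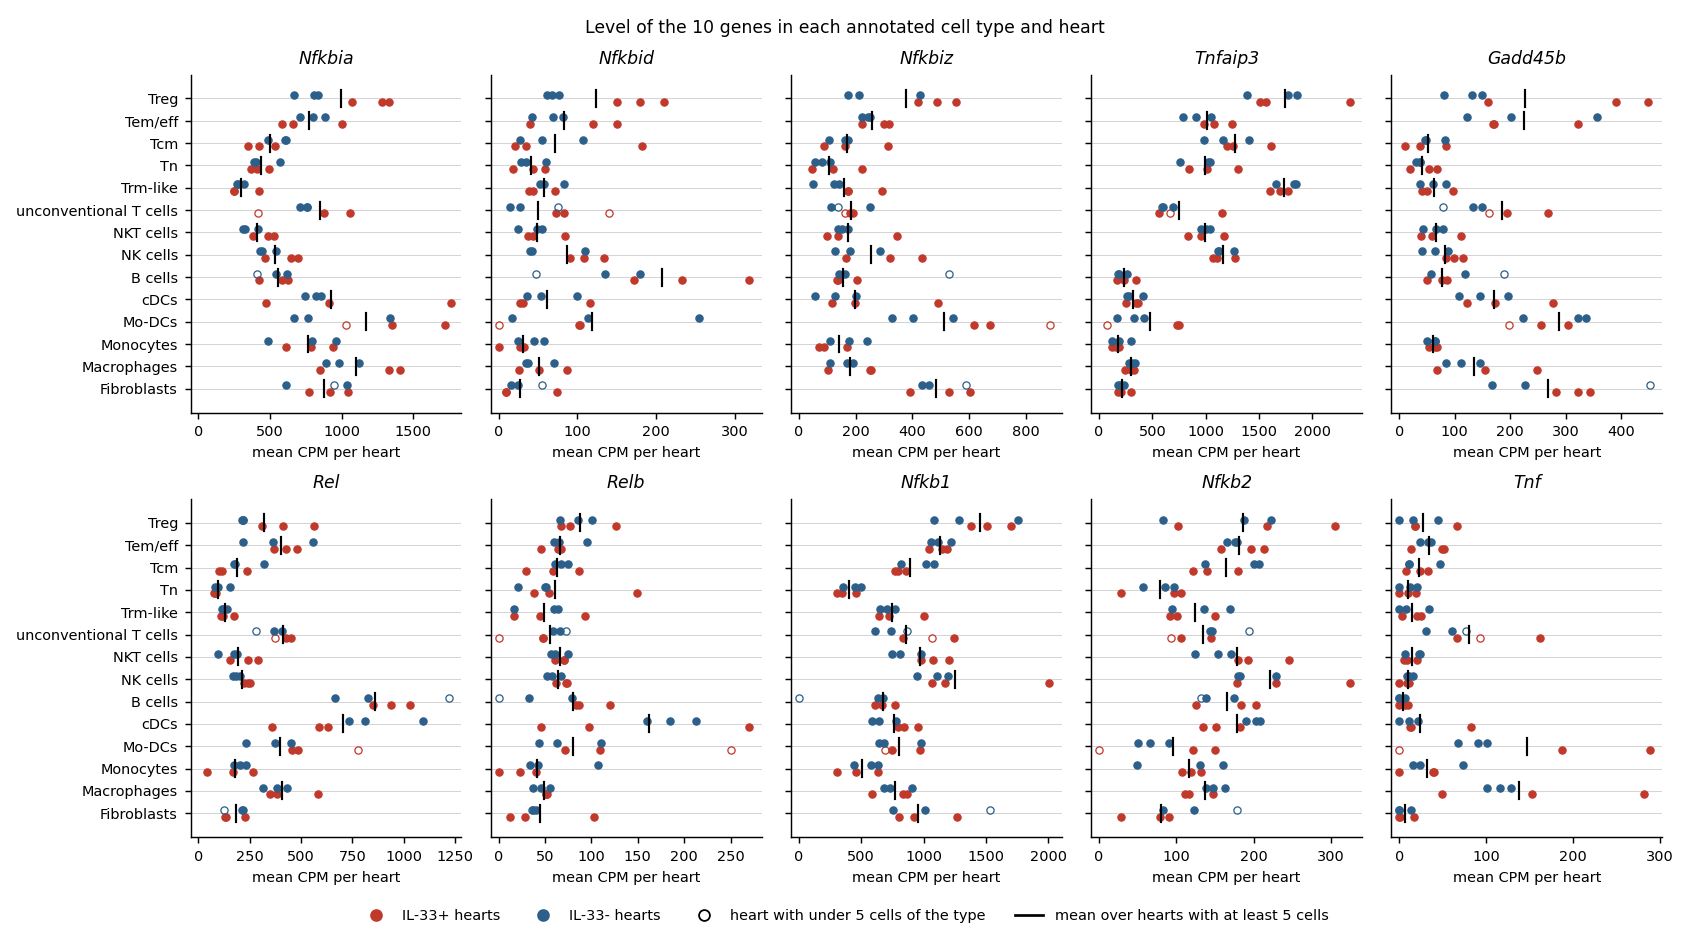
Mean CPM (linear axis) of each of the 10 genes (panels) in the 14 annotated cell types, with a point for each heart (red IL-33+, blue IL-33-, open where the heart held under 5 cells) and a bar at the mean over hearts with at least 5 cells. Mo-DCs lead for Nfkbia, Nfkbiz, Gadd45b and Tnf, and the points of neighbouring types overlap in each panel.

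Among the IkB family genes, Nfkbia averaged 1169 ± 442 CPM (SD, n = 5) in Mo-DCs, 1099 ± 232 CPM in macrophages and 999 ± 272 CPM in Tregs. In Mo-DCs it was at 1353, 1033 and 1720 CPM in hearts 1, 2 and 3 and at 666, 765 and 1339 CPM in hearts 4, 5 and 6, with heart 2 represented by 4 cells. In macrophages it was at 849.8, 1408 and 1334 CPM in the IL-33+ hearts and at 894, 986 and 1122 CPM in the IL-33- hearts. The 3 leading types therefore spread over the same range, and the lowest mean, 298 ± 66.8 CPM, was in tissue-resident memory-like T cells (Trm-like).

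Nfkbid, whose product acts on p50 in the nucleus, averaged 208 ± 70.8 CPM (n = 5) in B cells. Its B cell values were 233, 172 and 318 CPM in the IL-33+ hearts and 136, 47.2 and 179.7 CPM in the IL-33- hearts, the 47.2 CPM coming from 4 cells. The drop from B cells to Tregs, at 124 ± 63.7 CPM, was larger than either SD, and no other step in the order of Nfkbid was. Macrophages held 25.5, 86.9 and 51.0 CPM in hearts 1, 2 and 3 and 34.1, 37.2 and 70.1 CPM in hearts 4, 5 and 6, in the lower part of that order.

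Nfkbiz, which encodes an IkB protein that co-activates a subset of NF-kB targets, was shared by Mo-DCs (513 ± 146 CPM, n = 5) and fibroblasts (483 ± 83.8 CPM, n = 5). Fibroblasts were even across hearts, with 391.8, 529 and 603 CPM in IL-33+ and 458, 588 and 433 CPM in IL-33- hearts. Mo-DCs were at 619, 886 and 675 CPM in IL-33+ and at 402, 328 and 542 CPM in IL-33- hearts, without overlap, with 4 cells in heart 2 and 7 in heart 5. Monocyte markers in Mo-DCs did not overlap either (431 to 831 CPM in IL-33+, 1241 to 2216 CPM in IL-33- hearts), nor did NK cell markers (234 to 556 against 104 to 145 CPM), and their part in the Mo-DC values was not tested. In macrophages it was at 104, 249 and 253 CPM against 111, 192 and 171 CPM.

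Tnfaip3 averaged 1742 ± 346 CPM in Tregs and 1735 ± 96.1 CPM in Trm-like cells, and it fell to 1272 ± 215 CPM in the next type, central memory T cells (Tcm), which was the only step beyond the larger SD. Trm-like cells had 1774, 1601 and 1696 CPM in IL-33+ and 1826, 1665 and 1845 CPM in IL-33- hearts. The same cells were lowest of all types for Nfkbia. Myeloid cells were at the other end for Tnfaip3, with 246, 299 and 327 CPM against 340.0, 314 and 285 CPM in macrophages and a mean of 179.8 ± 65.6 CPM in monocytes, the lowest type.

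Gadd45b, an NF-kB-induced stress gene whose product restrains JNK signalling, averaged 289 ± 47.4 CPM (n = 5) in Mo-DCs and 269 ± 71.9 CPM (n = 5) in fibroblasts. The hearts ranged from 198 to 337 CPM in Mo-DCs: 257, 198 and 304 CPM in IL-33+ and 322, 223 and 337 CPM in IL-33- hearts. Fibroblasts gave 344, 283 and 322 CPM in IL-33+ and 167, 452 and 227 CPM in IL-33- hearts, where heart 5 rested on 4 cells. Which of these types led depended on how cells were averaged, since fibroblasts came first when UMIs were summed over cells. Macrophages were at 154, 68.4 and 249 CPM against 145, 84.9 and 111 CPM.

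Among the subunits, Rel averaged 862 ± 135 CPM (n = 5) in B cells and 702 ± 246 CPM in cDCs, and the step from cDCs to unconventional T cells (413 ± 34.4 CPM, n = 4) exceeded the larger SD. B cells were at 850.2, 939.8 and 1028 CPM in IL-33+ and at 825, 1222 and 667 CPM in IL-33- hearts, with 4 cells in heart 5. Macrophages, at 381, 348 and 585 CPM against 385, 314 and 431 CPM, followed close behind the unconventional T cells. Relb, the partner of p52 in the non-canonical branch, was highest in cDCs at 162 ± 80.6 CPM, but its hearts ranged widely, from 97.6, 270.1 and 45.7 CPM in IL-33+ to 159.9, 185 and 213 CPM in IL-33- hearts. Relb in macrophages was even, at 51.1, 52.0 and 50.9 CPM against 45.4, 55.1 and 36.9 CPM.

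Nfkb1 averaged 1452 ± 256 CPM in Tregs, 1250 ± 381 CPM in NK cells and 1128 ± 69.9 CPM in effector memory/effector T cells (Tem/eff), against 402 ± 78.4 CPM in Tn cells. In NK cells 1 heart stood out: 1068, 2007 and 1171 CPM in hearts 1, 2 and 3 and 1196, 949.9 and 1105 CPM in hearts 4, 5 and 6. Macrophages had 835, 868 and 584 CPM against 729, 685 and 906 CPM. Nfkb2, the p100 precursor of p52, averaged 221 ± 56.1 CPM in NK cells, with 179, 324 and 229 CPM against 229.6, 180.1 and 182 CPM. Its Treg mean was 186 ± 82.8 CPM, and macrophages were at 111, 148 and 116 CPM against 163, 139 and 147 CPM.

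Tnf was at 146.6 ± 91.0 CPM (n = 5) in Mo-DCs and 138 ± 78.2 CPM in macrophages, and at 4.45 ± 4.33 CPM (n = 5) in B cells. In Mo-DCs the hearts were at 187, 0 and 288 CPM in IL-33+ and at 67.6, 90.3 and 100.4 CPM in IL-33- grafts, the 0 coming from the 4 cells of heart 2. Macrophages gave 48.7, 153 and 281 CPM in IL-33+ and 116, 128 and 100.7 CPM in IL-33- hearts. The IL-33+ macrophages held both the lowest and the highest heart, and heart 3 was the highest for Tnf in both types. Heart 3 was also highest in both for the summed level of 22 genes known to be raised by tissue dissociation. That sum was 23500 CPM in its macrophages (10790 to 13110 CPM in other hearts) and 24310 CPM in its Mo-DCs (12530 to 16690 CPM). The part of these genes in the Tnf values was not tested. With UMIs summed over cells, Tnf in Mo-DCs averaged 252 CPM, so its size there depends on the averaging.

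Of the 13 steps between neighbouring types in each gene's order, at most 2 exceeded the larger SD (Nfkbia and Rel), 1 did for Nfkbid, Tnfaip3 and Nfkb1, and none did for the other 5 genes. The ranges over hearts of neighbouring types overlapped in every step of all 10 orders.

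**Figure D2:**
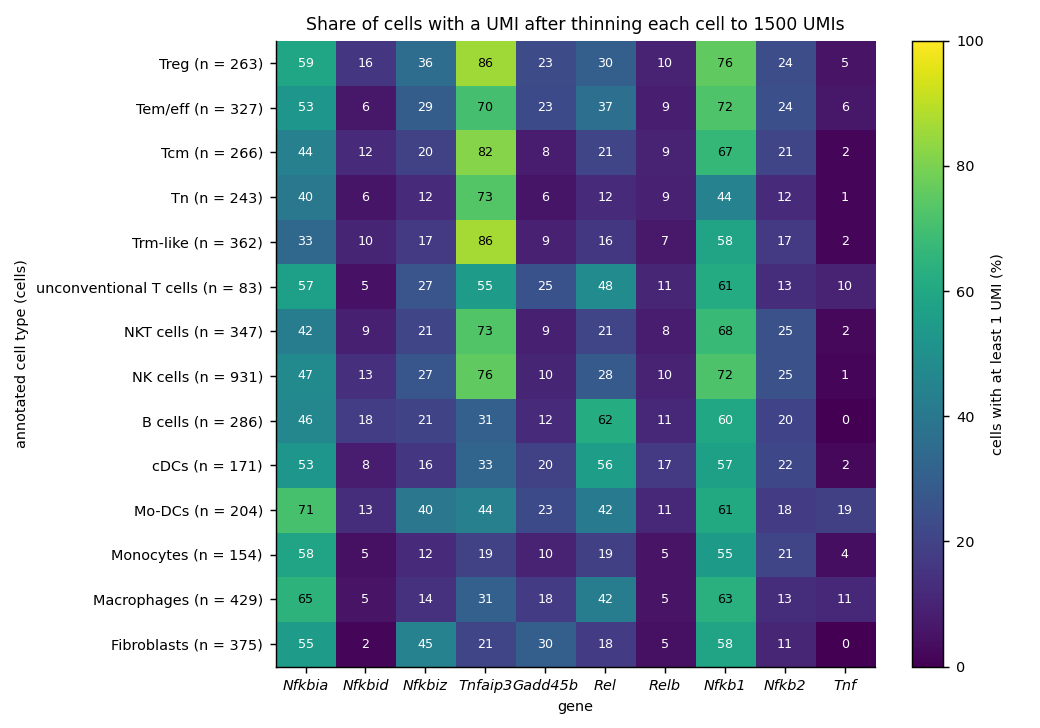
Share of cells with at least 1 UMI (percent, printed and as colour) of each gene (columns) in the 14 cell types (rows, with their number of cells) after every cell was thinned to 1500 UMIs. Tnf reaches 19.12% in Mo-DCs and is at 0 in B cells, and Tnfaip3 is highest in Trm-like cells (86.5%) and Tregs (85.6%).

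The share of cells with a UMI depends on depth, which ran from a median of 2292 UMIs in B cells to 10175 in unconventional T cells, so each cell was thinned to 1500 UMIs and no cell was left out. Tnf was then found in 39 of 204 Mo-DCs (19.12%, exact binomial 95% interval 13.96 to 25.19%), in 49 of 429 macrophages (11.42%, 8.57 to 14.82%) and in 14 of 263 Tregs (5.32%, 2.94 to 8.77%). B cells had 0 of 286 at this thinned depth (exact interval up to 1.28%, and 3 counts of the total would be 1.049%), and fibroblasts had 1 of 375 (0.267%). The intervals cover counting error only. Over hearts with at least 5 cells the thinned Tnf share ran from 10.71 to 21.62% in Mo-DCs, from 6.77 to 40.0% in macrophages and from 0 to 11.22% in Tregs. Before thinning, the Tnf share was 21.08% in Mo-DCs (median 2310 UMIs), 31.7% in macrophages (median 6606 UMIs), 9.51% in Tregs, 1.75% in B cells and 1.33% in fibroblasts, so macrophages and Mo-DCs changed places.

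For the other 9 genes, the type with the highest thinned share was that with the highest mean except for Nfkbiz (fibroblasts at 44.5%, above Mo-DCs), Gadd45b (fibroblasts at 30.4%, with Mo-DCs at 22.6% below 4 types) and Tnfaip3 (Trm-like cells above Tregs). Tnfaip3 was found in 86.5% of Trm-like cells and 85.6% of Tregs against 19.5% of monocytes, and Nfkb1 in 75.7% of Tregs against 44.4% of Tn cells. Nfkbia was found in 71.1% of Mo-DCs against 33.4% of Trm-like cells, and Rel in 61.9% of B cells against 11.9% of Tn cells. Nfkbid was detected in 18.2% of B cells and 1.87% of fibroblasts, the latter at a median of 5790 UMIs before thinning. Unthinned, 9 of the 10 genes had their highest share in unconventional T cells, the deepest type.

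Likeness to other genes was measured as Pearson's r over the 14 type means, among the 6160 genes that reached 50 CPM in some type. The points share 1 library and differ in depth, and the values are a description. The closest genes of the IkB family genes were Il3ra (r = 0.907), Dusp1 (0.868) and Gadd45b (0.848) for Nfkbia, Ankhd1 (0.932), Itsn2 (0.891) and Cd37 (0.882) for Nfkbid, and Syne1 (0.888), Hspa2 (0.879) and Csf1 (0.877) for Nfkbiz. Tnfaip3 was closest to Dgat1 (0.961), Il18r1 (0.952) and Sbf1 (0.950), and Gadd45b to Ptms (0.882), Dusp16 (0.869) and Ppp1r10 (0.864). Dusp1 and Dusp16 encode phosphatases that switch off MAP kinases, and Il18r1 encodes the IL-18 receptor chain.

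Rel was closest to Snhg15 (0.899), Cd83 (0.896) and Fgfr1op (0.883), Relb to Tmem123 (0.884), Dapp1 (0.832) and Snhg15 (0.823), Nfkb1 to Cdc14a (0.878), Gpx4 (0.863) and Junb (0.848), and Nfkb2 to Gpr171 (0.842), Hivep1 (0.826) and Atp5d (0.810). Cd83 encodes a surface protein of activated B cells and dendritic cells. Tnf was closest to Tollip (0.907), E230029C05Rik (0.907) and C1qc (0.894), the last a complement gene of macrophages. Among the 10 genes themselves the highest r was between Nfkbia and Gadd45b (0.848) and the lowest between Nfkbia and Tnfaip3 (-0.328).

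The graft groups were compared within each cell type, on log2(mean CPM + 10) with limma over all genes of the type. Of the 137 gene and type pairs of the 10 genes that could be fitted (Tnf was too sparse in Tn cells, fibroblasts and B cells), 0 passed an adjusted p of 0.05, as did 0.00884% of all 113175 pairs tested. At an unadjusted p of 0.05, 19 pairs passed, 17 of them higher in IL-33+ grafts, beside a background of 4.71%. Of these, 5 were at least 2-fold apart, all higher in IL-33+ grafts (background 2.67%), and of all 137 pairs 15 did not overlap between the groups, 12 of them higher in IL-33+ grafts (background 9.82%). The median log2 fold change of the 137 pairs was 0.11, against 0.00 over all pairs. The genes were chosen with these values known, so nothing is read from the counts, and with 3 hearts a group an exact two-sided permutation test of 1 gene cannot go below p = 0.1.

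Tregs and NK cells held 5 each of the 19 pairs. Gadd45b, Nfkbid, Rel and Nfkbia were higher in Tregs of every IL-33+ heart than in those of any IL-33- heart, while Tnfaip3, Nfkb1, Nfkb2, Relb and Tnf overlapped. Gadd45b was at 159.6, 391 and 449 CPM in hearts 1, 2 and 3 and at 149, 80.5 and 132 CPM in hearts 4, 5 and 6, a log2 fold change of 1.31 (SE 0.35, limma adjusted p = 0.481). Heart 1 lay close to heart 4 and the other IL-33+ hearts far above. Nfkbid was at 149.9, 179 and 209 CPM against 77.1, 68.0 and 60.9 CPM, a log2 fold change of 1.26 (SE 0.36, limma adjusted p = 0.62). Every IL-33+ heart was well above every IL-33- heart, although the means rest on 10, 16 and 64 UMIs in hearts 1, 2 and 3 and on 11, 5 and 7 UMIs in hearts 4, 5 and 6.

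Rel was at 308, 411 and 561 CPM in Tregs of the IL-33+ hearts and at 213, 219 and 215 CPM in those of the IL-33- hearts (log2 fold change 0.91, SE 0.28, limma adjusted p = 0.707). The IL-33- hearts were within a few CPM of each other, and the IL-33+ hearts were spread out above them. Nfkbia was at 1073, 1331 and 1280.0 CPM against 807, 835 and 667 CPM (0.67, SE 0.20, limma adjusted p = 0.62). Nfkbiz was at 487, 419 and 556 CPM against 173, 214 and 427 CPM (0.92, SE 0.29, limma adjusted p = 0.707), and heart 6 overlapped with the IL-33+ hearts.

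The remaining genes showed no such separation in Tregs. Tnfaip3 was at 1563, 1510.0 and 2354 CPM against 1392, 1857 and 1775 CPM, and Nfkb1 at 1702, 1379 and 1504 CPM against 1084, 1283 and 1758 CPM. Nfkb2 was at 305, 102 and 218 CPM against 223, 82.4 and 187 CPM, and Relb at 126, 67.4 and 76.6 CPM against 100.6, 66.4 and 85.8 CPM. Tnf was at 17.7, 17.7 and 67.0 CPM against 16.4, 44.5 and 0 CPM. In all, 5 of the 10 genes had an unadjusted p of 0.05 or less in Tregs (background 5.10%) and 4 did not overlap (background 10.0%), and the median of the 10 log2 fold changes was 0.67 against -0.02 over all 7275 genes.

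**Figure D3:**
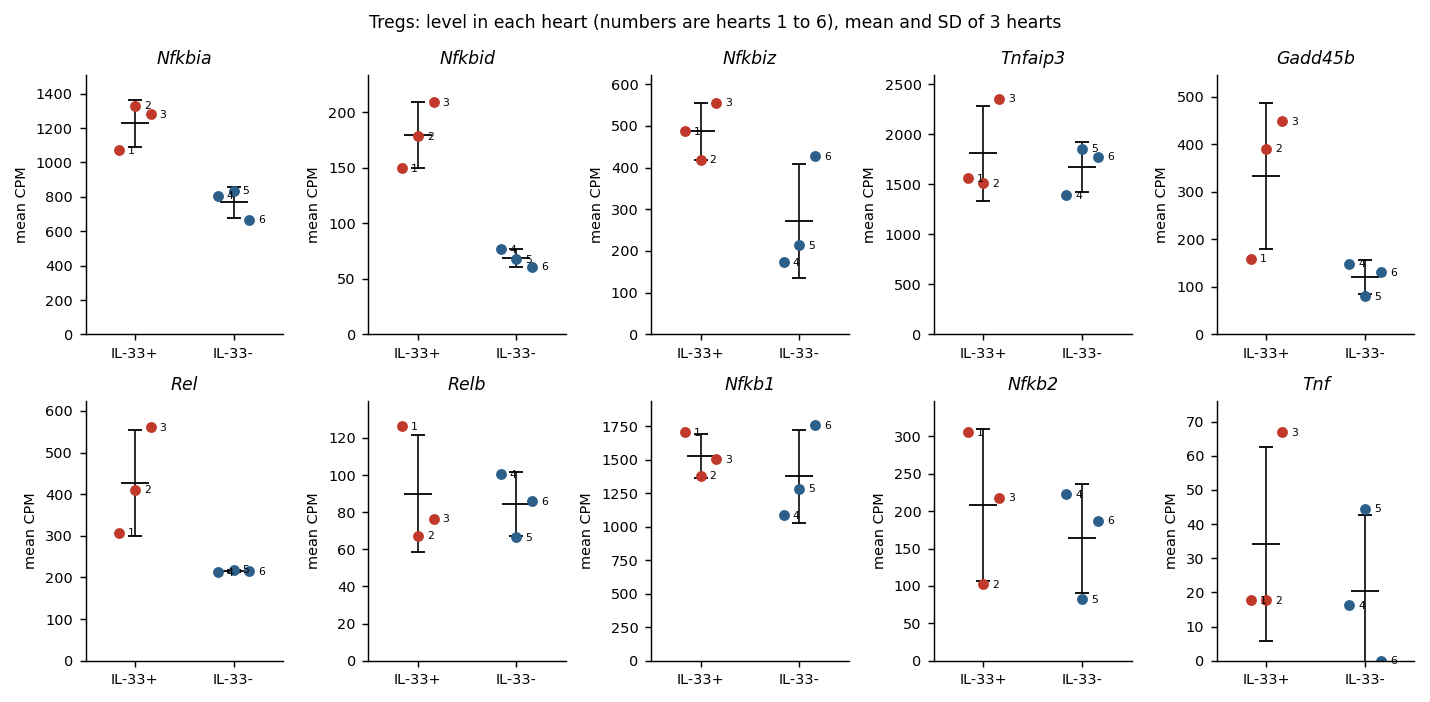
Mean CPM of each of the 10 genes in Tregs of the 6 hearts (points, numbered), with the mean and SD of the 3 hearts of each graft group. Gadd45b, Nfkbid, Rel and Nfkbia have all 3 IL-33+ hearts above all 3 IL-33- hearts, with heart 1 close to heart 4 for Gadd45b, and the other genes overlap.

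The Treg values came from 27, 25 and 98 cells in hearts 1, 2 and 3 and 55, 25 and 33 cells in hearts 4, 5 and 6. The summed level of 9 Treg markers was 4435 to 4806 CPM in IL-33+ and 4647 to 6775 CPM in IL-33- hearts with none of the markers at 0. In Tem/eff cells the same markers summed to 2616 to 3359 CPM in IL-33+ and 2841 to 3297 CPM in IL-33- hearts. A Foxp3 UMI was found in 51 of 263 annotated Tregs (19.39%) against 5 of 429 macrophages (1.17%), and T cells of other annotated types also held one. Genes known to be raised by tissue dissociation also tended to lie higher in the IL-33+ hearts. Their summed level over 22 genes was 13000, 18120 and 22550 CPM in Tregs of hearts 1, 2 and 3 and 13420, 13140 and 13050 CPM in hearts 4, 5 and 6, so heart 1 was level with the IL-33- hearts. Of the 22, 21 had a log2 fold change above 0, with a median of 0.62, against 48.1% of all genes and a median of -0.02. Of these immediate-early genes, Btg2 was at 252, 635 and 548 CPM against 201, 117 and 207 CPM (1.34, SE 0.32, limma adjusted p = 0.323). Fos (1.21, SE 0.34, adjusted p = 0.526) and Ier2 (1.12, SE 0.31, adjusted p = 0.526) also did not overlap. NK cell markers (6 genes, none at 0) separated the Tregs of the graft groups in the same direction, at 246, 201 and 622 CPM in hearts 1, 2 and 3 and at 155, 79.5 and 119.5 CPM in hearts 4, 5 and 6, beside 5983 to 10760 CPM in annotated NK cells. The part of dissociation genes and of NK cell transcripts in the Treg values was not tested.

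Markers of group 2 innate lymphoid cells (ILC2), which respond to IL-33, summed to 727 to 1532 CPM in Tregs of IL-33+ hearts and 418 to 2118 CPM in those of IL-33- hearts with none of the 7 at 0, and 16 of 263 Tregs (6.08%) held at least 3 of the 7. Without these 16 cells the log2 fold changes were 1.21 for Gadd45b, 1.47 for Nfkbid, 1.07 for Rel, 0.70 for Nfkbiz and 0.67 for Nfkbia. The fit was also made on T cells of any annotated type that held a Foxp3 UMI (109 cells, 51 of them annotated Tregs). Hearts 1, 2 and 3 gave 15, 5 and 24 of these cells and hearts 4, 5 and 6 gave 37, 16 and 12. The median over all genes in this fit was -0.15. Gadd45b (1.66), Nfkbiz (1.29) and Rel (1.01) then kept their size, whereas Nfkbid came to 0.23 and Nfkbia to 0.06. Without heart 1, Gadd45b was the 1 gene of the 10 that passed in Tregs (log2 fold change 1.76, limma adjusted p = 0.0187). This was the lowest adjusted p of 14 alternative settings, which ran up to 0.998. The dissociation genes Btg2 and Ier2 also passed without heart 1 (limma adjusted p = 0.00767 and 0.0414).

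The difference of the graft effect between Tregs and Tem/eff cells was fitted per heart, since nothing can be called particular to Tregs otherwise. In Tem/eff cells Gadd45b was at 169, 172 and 323 CPM against 202, 357 and 122 CPM, and Nfkbia at 659.6, 586 and 1000 CPM against 712, 882 and 803 CPM, both overlapping. The log2 fold change in Tregs exceeded that in Tem/eff cells by 1.29 (SE 0.61, limma adjusted p = 0.958) for Gadd45b, 0.79 (SE 0.40) for Nfkbia, 0.78 (SE 0.54) for Nfkbid, 0.72 (SE 0.46) for Nfkbiz and 0.66 (SE 0.49) for Rel. No gene of the 10 reached an unadjusted p of 0.05 (background 5.02%), and adjusted p ran from 0.958 to 0.995. A difference between Tregs and Tem/eff cells was therefore not shown, and the standard errors leave room for one.

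**Figure D4:**
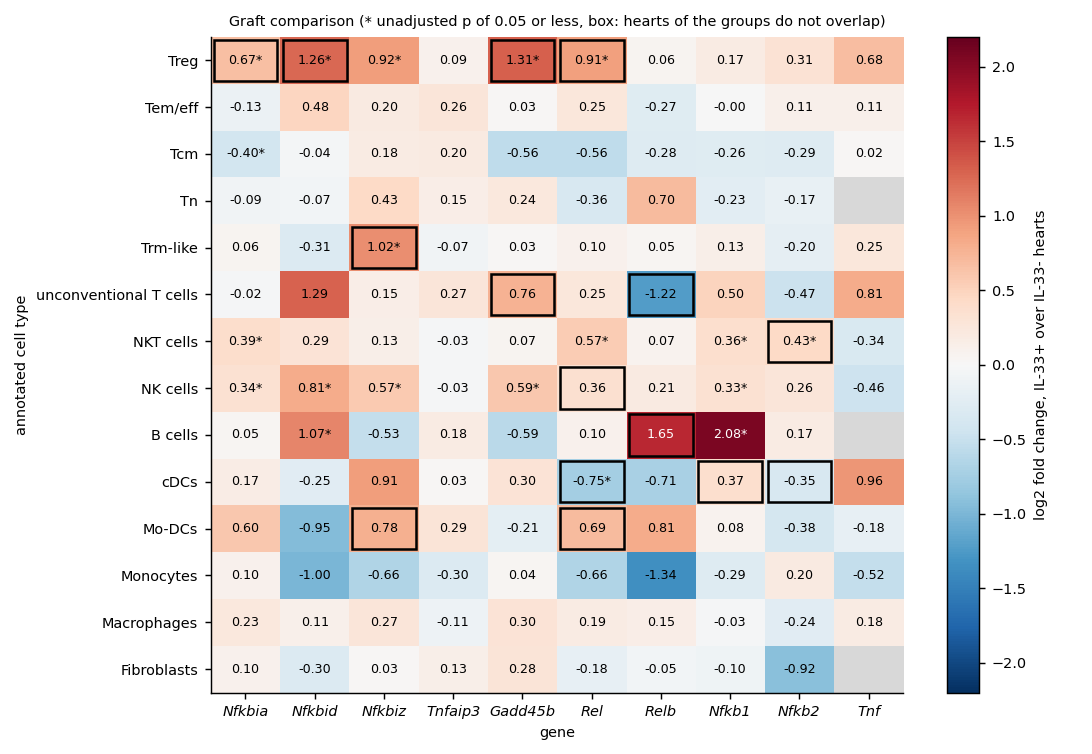
Log2 fold change (IL-33+ over IL-33- hearts, on log2(mean CPM + 10)) of the 10 genes (columns) in each cell type (rows), printed and as colour, with grey where Tnf was not fitted, a star at an unadjusted p of 0.05 or less and a box where the groups do not overlap. Tregs hold Gadd45b at 1.31 and Nfkbid at 1.26, and cDCs hold Rel at -0.75. The largest value, 2.08 for Nfkb1 in B cells, rests on 4 cells of heart 5.

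NK cells were the most numerous type, with 931 cells. In NK cells 5 of the 10 genes had an unadjusted p of 0.05 or less, all higher in IL-33+ grafts (background 5.82%), with limma adjusted p from 0.781 to 0.846. Nfkbid was at 90.1, 108 and 133 CPM against 109, 40.2 and 42.3 CPM (log2 fold change 0.81), and heart 4 lay within the IL-33+ range. Gadd45b (0.59), Nfkbiz (0.57), Nfkbia (0.34) and Nfkb1 (0.33) also overlapped. Rel did not overlap, at 252, 223 and 244 CPM against 170.4, 184 and 201 CPM (0.36). Hearts 4, 5 and 6 were all low for Rel but heart 4 was not for the other genes. Monocyte markers in NK cells summed to 469 to 530.3 CPM in IL-33+ and 738 to 753 CPM in IL-33- hearts, and their part in the NK cell values was not tested.

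In NKT cells, Rel (0.57), Nfkb2 (0.43), Nfkbia (0.39) and Nfkb1 (0.36) had an unadjusted p of 0.05 or less with adjusted p of 0.924, and of these Nfkb2 did not overlap, at 246, 193 and 179.6 CPM against 171, 154 and 125 CPM. NK cell markers in NKT cells summed to 6619 to 7671 CPM in IL-33+ and 3493 to 6459 CPM in IL-33- hearts, and their part in these values was not tested. In Trm-like cells Nfkbiz was at 174, 293 and 172 CPM against 124, 143 and 49.4 CPM (1.02, SE 0.34, limma adjusted p = 0.923), with hearts 2 and 6 apart from the rest of their groups. NK cell markers in Trm-like cells also did not overlap, at 2702, 1250 and 2225 CPM against 474, 649.9 and 1020 CPM with Ncr1 at 0, and their part in the Nfkbiz value was not tested. In B cells the log2 fold changes of Nfkbid, 1.07, and Nfkb1, 2.08, rested on heart 5 and were 0.55 and 0.06 without it. Its 4 B cells held no Nfkb1 UMI, beside 772, 611 and 669 CPM in IL-33+ hearts and 631 and 678 CPM in hearts 4 and 6.

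Rel went the other way in cDCs, at 633, 359 and 585 CPM in IL-33+ hearts and 731, 1093 and 813 CPM in IL-33- hearts, without overlap (log2 fold change -0.75, SE 0.24, limma adjusted p = 0.518). Heart 2 had 6 cDCs and heart 5 had 9. Nfkb2 in cDCs also lay lower in IL-33+ hearts (-0.35), and Nfkb1 higher (0.37), both without overlap. Nfkbia in Tcm cells was at 343, 421 and 537 CPM against 605, 485 and 615 CPM (-0.40). In macrophages all 10 log2 fold changes lay between -0.24 (Nfkb2) and 0.30 (Gadd45b), and Tnf was at 0.18.

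Other genes of the pathway were counted in lists over the 14 types. Over all genes, 4.71% of pairs had an unadjusted p of 0.05 or less in either direction. At this p, the subunits and IkB proteins outside the 10 (Rela, Nfkbib, Nfkbie, Bcl3) had 3 higher and 6 lower of 55 pairs, and the kinases and adaptors 7 higher and 10 lower of 300. The other feedback inhibitors had 11 higher and 3 lower of 191, the TNF and lymphotoxin genes 1 higher and 2 lower of 61, and the GADD45 family 1 higher and 1 lower of 42. NF-kB target genes had 22 higher and 15 lower of 302, and the dissociation genes 38 higher and 4 lower of 304, with a median log2 fold change of 0.16 over all their pairs. In Tregs, 0 of the 4 subunits and IkB proteins had a log2 fold change above 0 (median -0.28), 2 of 14 other feedback inhibitors and 2 of 22 targets were higher at an unadjusted p of 0.05, and so were 7 of the 22 dissociation genes, against a background of 5.10% in either direction.

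After adjustment, 2 pairs of these lists passed, both the chemokine gene Ccl2, an NF-kB target that recruits monocytes. It was lower in fibroblasts of IL-33+ grafts, at 671, 83.5 and 598 CPM against 1254, 2806 and 1944 CPM (log2 fold change -2.50, SE 0.43, limma adjusted p = 0.0193), with 6 fibroblasts in heart 2 and 4 in heart 5. In Mo-DCs Ccl2 was at 304, 0 and 416 CPM against 769, 597 and 1041 CPM (-2.85, SE 0.58, limma adjusted p = 0.00196), and without heart 2, with its 4 Mo-DCs, the log2 fold change was -1.11 with an adjusted p of 1.0. The fibroblast value without heart 2 was -1.57 (adjusted p = 0.447), and the fibroblast call was also lost without heart 3 (adjusted p = 0.358) or heart 5 (0.907) and the Mo-DC call without heart 6 (0.0505). Monocyte markers in Mo-DCs were also lower in IL-33+ hearts (431 to 831 CPM) than in IL-33- hearts (1241 to 2216 CPM). Their part in the Ccl2 values was not tested.

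Among list genes that did not overlap, macrophages had Sod2, a mitochondrial superoxide dismutase induced by NF-kB, at 210.3, 133 and 179.7 CPM against 335, 382 and 432 CPM (-1.11, limma adjusted p = 0.358), Cxcl10 at -1.06 and the adaptor gene Myd88 at -0.95. Monocytes had the adaptor gene Traf3 at -2.10, Nfkbib, which encodes IkB-beta, at -1.29 and the IkB family gene Bcl3 at -1.25. Tem/eff cells had Atf3 at 1.09, Ccrl2 at 0.65 and Il6 at 0.60. None of these passed adjustment, with adjusted p from 0.358 to 0.998.

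Whether the feedback genes accompany Tnf within 1 cell type was asked in cells with and without a Tnf UMI, a split that did not enter the choice of the genes. In macrophages, 136 cells had a Tnf UMI and 293 had none, at median depths of 6945 and 6475 UMIs, and the 6 hearts were compared as pairs. Nfkbia was higher in the Tnf-positive cells of all 6 hearts, at 999, 1850, 1611, 1074, 1069 and 1761 CPM in hearts 1 to 6 against 805, 1113, 1108, 796, 935 and 851 CPM in the cells without. The log2 fold change was 0.54 (SE 0.14, unadjusted limma p = 0.00171, adjusted p = 0.84), and an exact two-sided sign-flip permutation test over the 6 hearts gave p = 0.03125, the smallest it can give.

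Tnfaip3 behaved likewise, at 252, 383, 406, 512, 369 and 416 CPM in hearts 1 to 6 against 244, 243, 262, 247, 279.9 and 229 CPM (0.59, SE 0.19, adjusted limma p = 0.84, exact permutation p = 0.03125). Heart 1 showed the smallest gap and heart 4 the largest. Nfkbiz was higher in 5 of 6 hearts, at 133, 155, 377, 135, 304 and 334 CPM against 95.1, 312, 152, 97.1, 123 and 102 CPM (0.67, SE 0.31, adjusted limma p = 0.84, exact permutation p = 0.1562), and heart 2, with 4 Tnf-positive macrophages, went the other way. Of the 9 genes other than Tnf, 3 had an unadjusted p of 0.05 or less (background 4.36%), none passed adjustment over 9682 genes, and 9 exact tests were made.

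**Figure D5:**
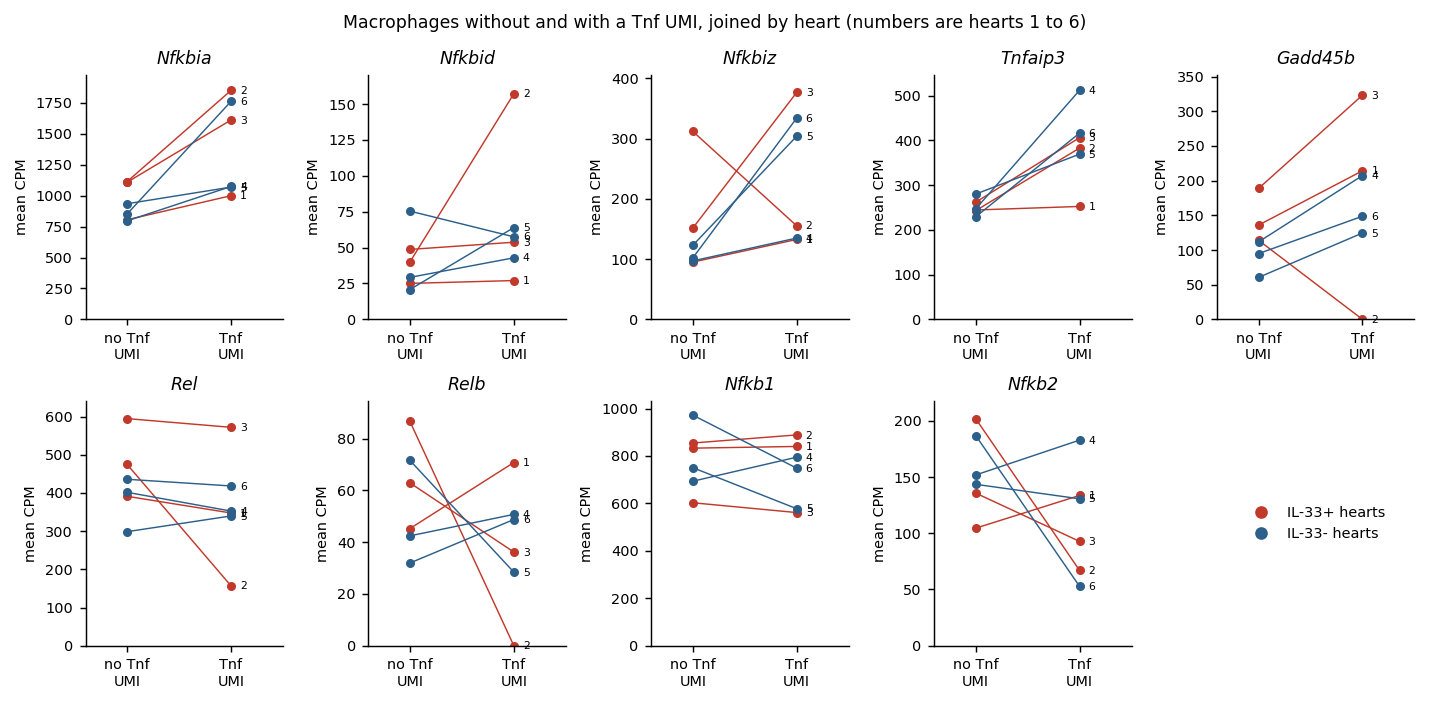
Mean CPM in macrophages without (left) and with (right) a Tnf UMI for the 9 genes other than Tnf, with a line for each of the 6 hearts (red IL-33+, blue IL-33-). Nfkbia and Tnfaip3 are higher with Tnf in all 6 hearts, Nfkbiz in 5 and Rel in 1.

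No subunit had an unadjusted p of 0.05 or less in this comparison. Rel was higher in Tnf-positive macrophages of 1 of 6 hearts (log2 fold change -0.30, SE 0.22), Nfkb1 in 3 (-0.10, SE 0.14), Relb in 3 (-0.63, SE 0.48) and Nfkb2 in 2 (-0.53, SE 0.31), against a median of -0.09 over all genes. Nfkbid had 0.55 (SE 0.36, 5 of 6 hearts) and Gadd45b 0.02 (SE 0.51), the latter higher in 5 hearts but at 0 in the 4 Tnf-positive cells of heart 2; without heart 2 it was 0.75. When each macrophage was thinned to 1500 UMIs before Tnf was read, the median over all genes moved to -0.62, and beside it Nfkbia was at 0.46, Tnfaip3 at 0.69, Nfkbid at -0.18 and Nfkbiz at -1.86.

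By p, the 10 genes most raised with Tnf in macrophages were Jund (0.91, limma adjusted p = 0.286), the neutrophil chemokine gene Cxcl2 (1.22, adjusted p = 0.436), Plau, Ccl12, Il10, Nfkbia, Ccl2, Ly6a, Spp1 and Mrc1 (the last 8 at an adjusted p of 0.84). Nfkbia stood sixth in this order, and Tnf, by which the cells were split, was the 1 gene of 9682 that passed adjustment. Jund belongs to the genes raised by tissue dissociation, whose part in this comparison was not tested.

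Over all hearts 51 Tem/eff cells had a Tnf UMI and 276 had none, and 5 hearts could be paired. There 7 of 9271 genes passed adjustment (0.0755%), among them Tnf itself, by which the cells were split. None of the 9 genes had an unadjusted p of 0.05 or less (background 7.67%). Ifng, the type 1 effector cytokine, was higher with Tnf (1.87, limma adjusted p = 1.7e-05). Lower were Cd8b1 (-2.09), Il10 (-1.98), Hbb-bs (-1.92), Tmem64 (-1.84) and Gzma (-1.63), against a median of -0.15 over all genes. In a fit of Tem/eff cells without the heart as a block, 1 gene passed as higher and 0 as lower. The Tnf-positive side held 6 to 14 cells in the paired hearts. Nfkbia had -0.23 (SE 0.16) and Tnfaip3 0.10 (SE 0.15) in Tem/eff cells. In monocytes only hearts 1 and 4 could be paired, with 14 and 5 cells that had a Tnf UMI and 68 and 28 without. Of 6609 genes 17 passed (0.257%), led by Cxcl2 (1.75, limma adjusted p = 7.2e-10) and again counting Tnf itself. Without the heart as a block none of the 17 passed. With 2 pairs the spread between hearts is hardly measured, and the exact sign-flip permutation test cannot go below p = 0.5. Of the 9 genes, Gadd45b alone had an unadjusted p of 0.05 or less in monocytes (background 6.01%), at 140.2 against 35.0 CPM in heart 1 and 85.7 against 44.7 CPM in heart 4 (1.27, SE 0.61, limma adjusted p = 0.816). Whether macrophages, Tem/eff cells and monocytes differ in these values was not tested.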

How the data were processed

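Cells of 6 Bm12 heart allografts were pooled after hashtag labelling into 1 droplet library of 3′ transcripts. The submitters' processing notes name Cell Ranger, Partek 10.0.23.0425 and the mm10 build, and the authors deposited log2(CPM + 1) values per gene and cell with cell types, graft genotype and hashtag of each cell. The authors removed likely doublets and poor cells by bounds on UMIs, detected genes and mitochondrial reads per cell, with no doublet caller named. How hashtags were assigned is not given in the sources used here, and the cells were used as deposited. Whole UMIs were recovered from the deposited log2 values: 99.94% of low values lay within 0.05 of a whole UMI, and 20 symbols, none of them a gene reported here, hold means. Hearts gave 908137 to 7012943 UMIs, which limits the precision of low genes.

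Mean CPM per heart and type was fitted as log2(mean CPM + 10) with limma 3.58.1 (R 4.3.3, eBayes with trend, Benjamini-Hochberg over all genes of a type), over all 6 hearts, for genes that reached 10 UMIs over the hearts and were detected in 3 or more of them. Fold changes on this scale understate the change of low genes. Each hashtag marks 1 heart, so p-values measure the spread between hearts processed together in 1 library. Cells were thinned to 1500 UMIs for shares (Python 3.11.15, numpy 2.4.6, scipy 1.17.1). The fits were tested on simulated data. The members and lists were chosen with earlier results of these data known. Values by heart are given for each gene in its 2 highest types, in Tregs, in macrophages and where groups did not overlap at 2-fold or more with at least 5 cells in every heart. Of the pathway lists, genes past adjustment are named, with the 3 largest without overlap in Tregs, macrophages, monocytes and Tem/eff cells. Other cases were chosen after their values were seen. Other averaging, pseudocounts, filters, cell sets and left-out hearts were tried.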

Additional observations from a re-analysis of the deposited data

How the results depend on the processing

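Of the 10 genes, 0 pairs passed adjustment over the 14 types. Without a filter on low counts 1 did (Nfkb1 in B cells, limma adjusted p = 4.58e-05), and leaving out 1 heart gave 0 to 1: Gadd45b in Tregs without heart 1 and Nfkb1 in B cells without heart 6 (3.11, adjusted p = 0.00121). The pathway lists had 2 pairs called, 1 with robust eBayes, 1 with limma-voom on summed UMIs, 6 without the filter, 1 with a pseudocount of 1 CPM, 5 with one of 50 CPM, and 1 to 12 with 1 heart left out. Ccl2 lost its call in fibroblasts under 5 alternatives and without hearts 2, 3 or 5, and in Mo-DCs with robust eBayes, with voom, without hearts of under 10 cells (-1.31) and without hearts 2 or 6. Btg2 in Tregs passed without the filter (adjusted p = 0.0376) and without heart 1 (0.00767), as did Ier2 without heart 1 (0.0414), and without heart 3 Sod2 in macrophages (0.0435) and Traf3 in monocytes (0.0188).

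For the difference between Tregs and Tem/eff cells, 0 genes had an unadjusted p of 0.05 or less, 2 with summed UMIs, 2 with a pseudocount of 50 CPM and 0 to 2 with 1 heart left out. In Tregs this count was 5, and 3 with Foxp3-UMI T cells. For Tnf in Tem/eff cells it was 0, 1 after thinning (1 also after adjustment) and 0 to 1 with 1 heart left out, and after thinning 954 of 5533 genes passed, 952 of them lower, with a median of -1.08 over all genes. For shares, 10 genes had a highest type after thinning, and 1 had the same type with cells as deposited. Signs turned in Tregs for Fos (-0.55) and Relb (-0.67) with Foxp3-UMI T cells, for Relb with summed UMIs (-0.1) and voom (-0.19), and with 1 heart left out for Nfkb2 (-0.09 to 0.73, below 0 without heart 1 at -0.02 or heart 5), Relb (-0.19 to 0.22, below 0 without heart 1 or heart 5 at -0.09) and Tnfaip3 (-0.11 to 0.21, below 0 without heart 3 or heart 4 at -0.04). In Tnf-positive macrophages they turned after thinning for Nfkbid (-0.18), Nfkbiz (-1.86) and Gadd45b (-1.0), where the median of all genes also moved, from -0.09 to -0.62, and for Gadd45b with 1 heart left out (-0.17 to 0.75, above 0 without heart 2). The causes were not tested. The thinned monocyte comparison could not be fitted. No paired analysis was possible because nothing in the labels ties a heart of 1 group to a heart of the other. Depth limits Nfkbid, Relb and Tnf most, which rest on few UMIs per heart and type.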
